A study of Danio rerio with 16 samples.

Results

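Liver mRNA was measured for the genes that activate, bind, elongate, store and break down fatty acids. The members were the named genes whose symbol begins with one of a fixed set of letters: the acyl-CoA synthetases (acsl, acss and kin), the thioesterases (acot), the binding proteins (fabp), the desaturases and elongases (fads, elovl), the acyltransferases of glycerolipid assembly (gpat, agpat, lpcat, mogat, dgat), the droplet coat proteins (plin), the lipases (lpl, lip) and the peroxins (pex). The liver gene fabp10a was left out. This pattern matched 61 of 11960 named genes, out of 35857 genes in all. Of these, 4 were gpatch genes, which encode RNA-binding G-patch proteins and share only the letters with gpat, and they were set aside, so that 57 members remained. No levels entered this pattern, but it was chosen with earlier results of these data known.

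Wild-type zebrafish (WT) were compared with 3 transgenic types, labelled HBx(p53-) and Src(p53-) and, for the combination, HBx,Src(p53-), all of the AB strain according to the labels. The transgenic types carry the hepatitis B virus X protein, the kinase src or both under the liver promoter of fabp10a, and all 3 carry the p53 mutation, so that the effect of a transgene and that of mutant p53 cannot be told apart in a comparison with WT. Fish were 3 months old at the start and were fed for 8 weeks. All groups received powdered feed every day. Beside this feed, the normal diet (NOR) held 0.5 mL of brine shrimp 1 time a day. Overfeeding (DIO) held 2 mL of brine shrimp 3 times a day. The high-fat diet (FAT) added 0.22 g of high-fat food 3 times a day to the NOR amount of shrimp. Each type had 2 NOR libraries. WT, HBx(p53-) and Src(p53-) had 1 DIO and 1 FAT library each, and HBx,Src(p53-) had 2 DIO libraries and no FAT library, which makes 16 libraries. DIO and FAT are called the obesity diet where they were pooled. The legends of the study count as many fish as libraries, so that a library is read here as a single fish. The p-values rest on a spread between fish that is shared by all groups of a fit. Where DIO and FAT were pooled in a fit, this spread also holds the difference between these diets. That includes the tests in HBx,Src(p53-), which share the fit with the other types. The diet effect common to all types and FAT minus DIO were fitted as genotype plus diet. Their spread also holds differences of the diet effect between types.

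A fatty acid is used only after a synthetase has joined it to coenzyme A, and thioesterases undo that step. The acyl-CoA is then elongated, desaturated, burned in mitochondria and peroxisomes, or built stepwise onto glycerol to give phosphatidic acid and finally triglyceride, which hepatocytes keep in droplets coated by perilipins. Lipases release fatty acids from lipoproteins and lipids again, and binding proteins carry them through the cytosol. In fatty liver disease the balance of these steps is disturbed, and hepatocytes fill with droplets.

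The values were FPKM, fragments scaled to transcript length and to the mapped total, so levels of different genes can be set side by side. Tests were run with limma on log2(FPKM + 1) over 12317 genes whose mean reached 1 FPKM, and p-values were adjusted over all of them by the Benjamini-Hochberg method. The study lists the mapped reads of each library, but the number of reads behind a single value is unknown. The FPKM of a library summed to 812158 to 1218152, and 20343 to 23002 genes were above 0. The src level was 3.47 to 47.3 FPKM in the 8 libraries of fish with the src transgene and 0 to 4.24 in the other 8, so the lowest of the former overlapped with the latter. The hepatocyte markers that could be matched (7 of 15) summed to 10514 to 40485 FPKM in each library. Markers of other cells were uneven. The summed red blood cell markers (5 of 6 matched) ranged from 226 to 779 FPKM, the ovary markers (6 of 7 matched) ranged from 0.0416 to 22.2 FPKM and the leukocyte markers (5 of 6) from 2.23 to 64.6, both highest in HBx,Src(p53-) NOR library 1, and the exocrine pancreas markers (10 of 16) ranged from 3.61 to 328, highest in HBx,Src(p53-) DIO library 1. The leukocyte and ovary markers were not raised in HBx,Src(p53-) NOR library 1 alone. In all 4 HBx,Src(p53-) libraries mpeg1.1 (5.55 to 10.1 FPKM) and coro1a (2.15 to 3.24) exceeded the other 12 (at most 4.81 and 1.88). So did the ovary markers buc (0.318 to 6.02, against at most 0.111) and bmp15 (0.333 to 2.26, against at most 0.251). The other matched markers of both lists overlapped. Of the adipocyte markers, 6 of 7 were matched and summed to 22.7 to 1369 FPKM. The highest sum, in HBx,Src(p53-) NOR library 1, was almost all cebpa (1313 FPKM), which hepatocytes also express. The marker cfd had 56.0 to 125 FPKM in the 4 HBx,Src(p53-) libraries, highest in DIO library 1, and 9.56 to 39.9 in the other 12. The markers adipoqb, lepa, lepb and adrb3a stayed under 1 FPKM in every library. The part of all these markers in the results was not tested. These are bulk libraries, in which fewer cells of a type and less RNA per cell cannot be told apart.

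Of the 57 members, 34 reached the mean of 1 FPKM and were tested, 16 lay under it with a value above 0 in some library, and 7 were listed at 0 in all 16 libraries (fabp1a, fabp1b.1, fabp6, fabp11b, elovl7b, acot19 and acot22). An entry listed at 0 in these files can be a failed estimate. Among the members tested, 20 stayed above 1 FPKM in every library. The carnitine shuttle (cpt1, cpt2), the peroxisomal oxidases (acox), lpin and pnpla genes had no named entry and were not analysed here. Together the members held 0.323 to 0.639% of the FPKM of a library.

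The most abundant members were lipases and a binding protein. The highest mean was that of lpla, a lipoprotein lipase, which frees fatty acids from circulating triglyceride, with 1954 FPKM. Next was lipca, hepatic lipase, with 1073 FPKM, followed by fabp3, a heart-type fatty acid-binding protein, with 747 FPKM. The desaturase fads2, which starts the conversion of dietary polyunsaturated fatty acids and is bifunctional in zebrafish, had a mean of 395 FPKM. These 4 genes made up 73.6 to 91.7% of the members' FPKM in a library. Their order was not the same in every library, since lipca exceeded lpla in HBx(p53-) DIO, HBx(p53-) FAT, WT FAT and HBx,Src(p53-) NOR library 2.

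**Figure D1:**
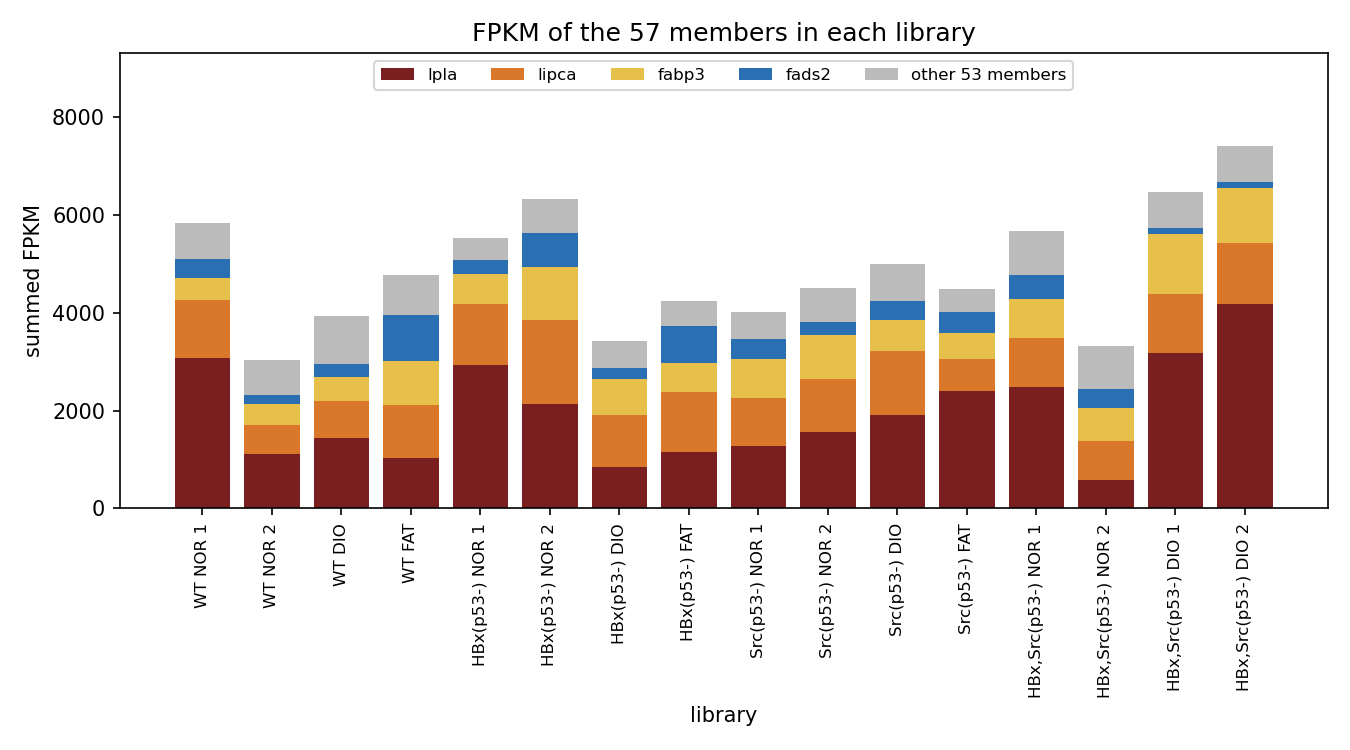
Summed FPKM of the 57 members in each of the 16 libraries (bars from 0), divided into lpla, lipca, fabp3, fads2 and the other 53 members. The sums ran from 3039 FPKM in WT NOR library 2 to 7397 in HBx,Src(p53-) DIO library 2, and lpla accounted for most of that range.

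No member passed an adjusted p of 0.05 in any of the 8 comparisons made, and the differences given here are therefore descriptions with their standard errors (SE). Differences between the diets of more than 2 on the log2 scale in at least 1 type were found for elovl2 and elovl6, both elongases, acsl4b and acss1, both acyl-CoA synthetases, fabp7a, a brain-type binding protein, and the lipase lipg. The members' median log2 difference between obesity diet and NOR was 0.08 (WT), 0.04 (HBx(p53-)), -0.29 (Src(p53-)) and 0.02 (HBx,Src(p53-)), against 0.03, -0.04, -0.34 and -0.10 over all genes tested. The shift of all genes in Src(p53-) was reduced to -0.14 when each library was scaled to the same sum and to -0.03 after quantile normalization, and the members' median there became -0.11 and -0.0046. In HBx,Src(p53-), scaling to the same sum turned the members' median to -0.21 and that of all genes to -0.31. After quantile normalization they were 0.06 and -0.05 there, so the sign of the members' median depended on the scaling.

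**Figure D2:**
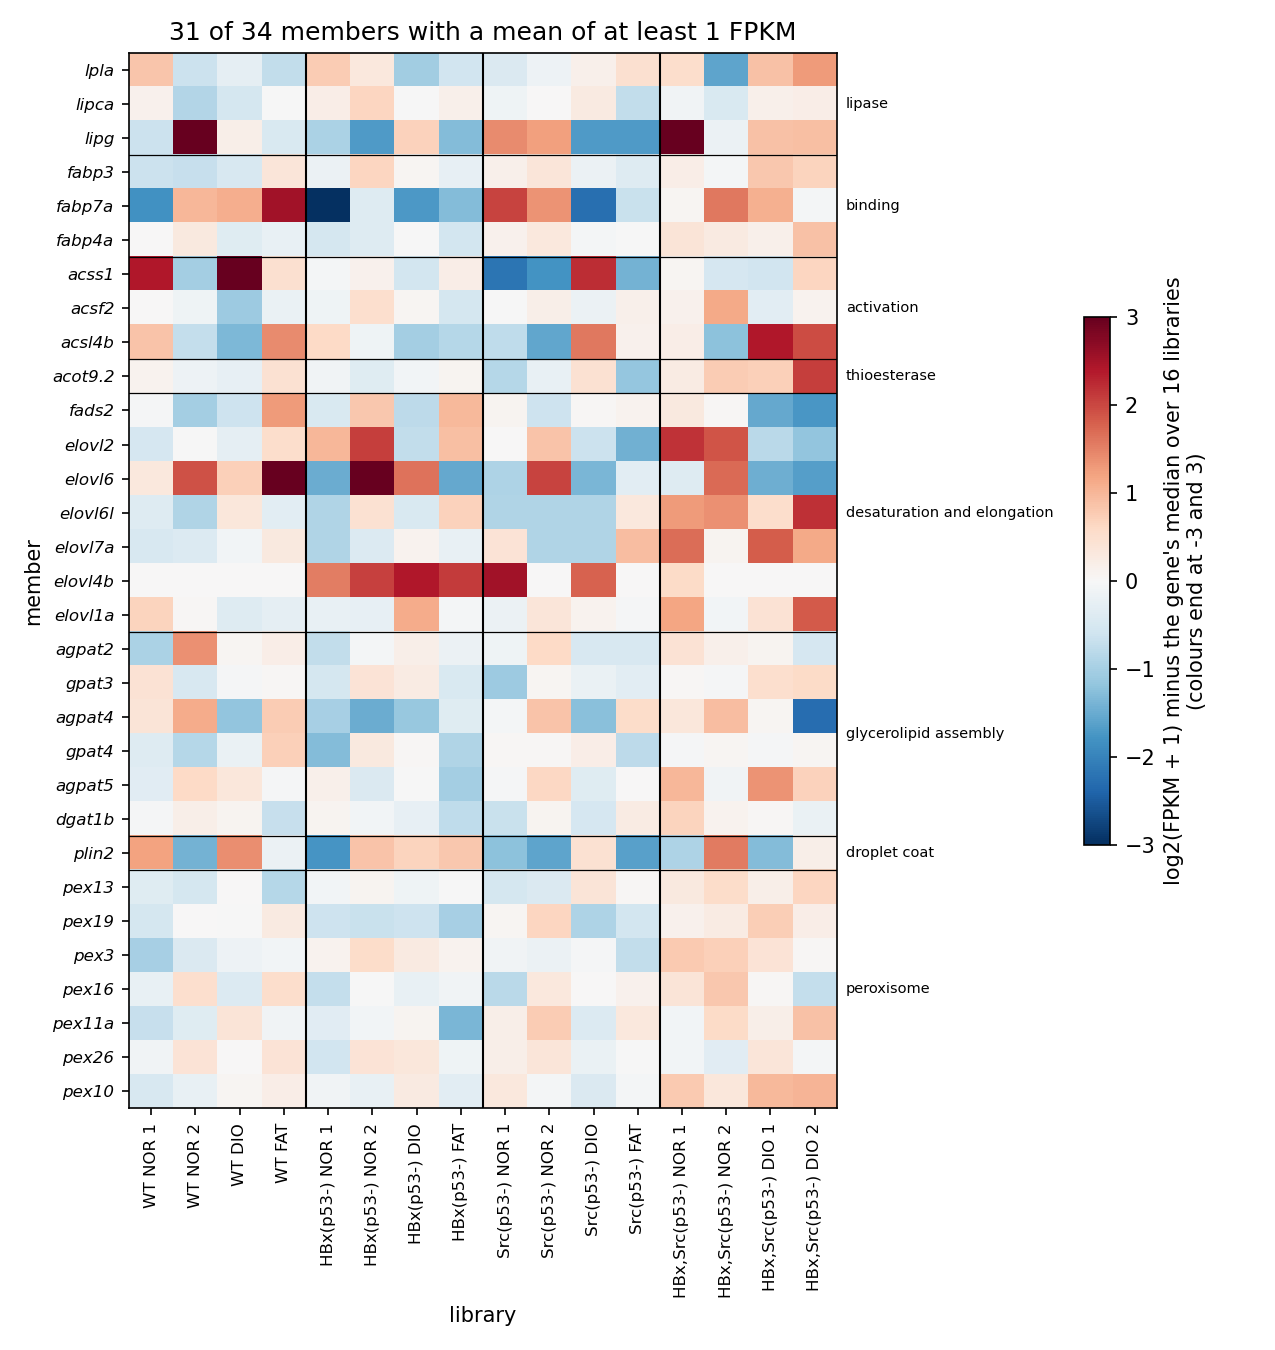
Level of 31 of the 34 members tested (rows, by role) in the 16 libraries (columns), as log2(FPKM + 1) minus the median of the gene over all libraries, with red above and blue below it. The libraries of a NOR pair differ widely in some rows, as with lipg (1.08 and 32.8 FPKM in WT) and acss1 (285 and 26.0 FPKM in WT).

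Differences between libraries of the same group set the limit. Over the tested genes, the 2 libraries of a pair correlated with r of 0.846 to 0.932, lowest in WT NOR and HBx,Src(p53-) NOR. Over the 5 pairs, the SD of log2(FPKM + 1) within a pair was 2.20 for lipg, 2.07 for elovl6, 1.50 for plin2, 1.42 for fabp7a and 1.17 for acss1, and 0.19 for pex13 and 0.20 for pex10. For elovl2 it was 0.48, against an SD of 1.15 over all 16 libraries, the largest such ratio (2.40) among the members.

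The desaturases and elongases lengthen and desaturate fatty acids in the endoplasmic reticulum. The elongase elovl2 acts late in the pathway from plant omega-3 fatty acids to docosahexaenoic acid. In WT it stood at 10.9 and 15.6 FPKM (NOR), 13.004 (DIO) and 23.1 (FAT), and in HBx(p53-) at 32.7 and 69.4 (NOR), 9.02 (DIO) and 30.2 (FAT). Levels in Src(p53-) were 16.04 and 29.6 FPKM (NOR), 9.69 (DIO) and 5.14 (FAT), and HBx,Src(p53-) fish had 74.7 and 61.6 (NOR) and 8.67 and 6.39 (DIO). In the 3 transgenic types both obesity libraries lay under both NOR libraries, whereas in WT the diets overlapped. The log2 difference was -3.03 (SE 0.61, limma adjusted p = 0.0698, 2 libraries against 2) in HBx,Src(p53-), -1.49 (SE 0.61, adjusted p = 0.448) in Src(p53-), -1.46 (SE 0.61, adjusted p = 1) in HBx(p53-) and 0.39 (SE 0.61, adjusted p = 1) in WT. Over the alternatives tried, the adjusted p in HBx,Src(p53-) ranged from 0.0528 to 0.456 and the difference from -3.27 to -2.83. In HBx(p53-) the difference was -0.93 when NOR library 2 was left out, -0.64 when DIO was and -2.28 when FAT was.

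The desaturase fads2 was low on DIO in HBx,Src(p53-) fish, with 477 and 399 FPKM (NOR) and 133 and 116 (DIO). Elsewhere the DIO library held 251 FPKM (WT), 227 (HBx(p53-)) and 395 (Src(p53-)), and the FAT libraries 943, 759 and 421. The NOR pairs stood at 382 and 191 FPKM (WT), 281 and 682 (HBx(p53-)) and 409 and 251 (Src(p53-)), so that within each of these types NOR overlapped with the range of the obesity libraries. The log2 difference in HBx,Src(p53-) was -1.80 (SE 0.69, limma adjusted p = 0.247).

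The elongase elovl6, which extends saturated and monounsaturated fatty acids made in the liver, was the most erratic of this role. In WT it stood at 2.89 and 10.7 FPKM (NOR), 4.16 (DIO) and 62.0 (FAT), and in HBx(p53-) at 0.116 and 40.6 (NOR), 8.75 (DIO) and 0.0877 (FAT). Src(p53-) fish had 0.655 and 11.8 FPKM (NOR), 0.216 (DIO) and 1.53 (FAT), and HBx,Src(p53-) fish had 1.42 and 9.11 (NOR) and 0.131 and 0 (DIO). Only in HBx,Src(p53-) did the diets not overlap, and its log2 difference there of -2.22 had an SE of 1.67. The remaining elongases tested (elovl1a, elovl4b, elovl6l, elovl7a) had means of 1.14 to 1.51 FPKM. In all, 7 of 11 members of this role were tested, elovl1b, elovl4a and elovl8a lay under the mean of 1 FPKM, and elovl7b was listed at 0.

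**Figure D3:**
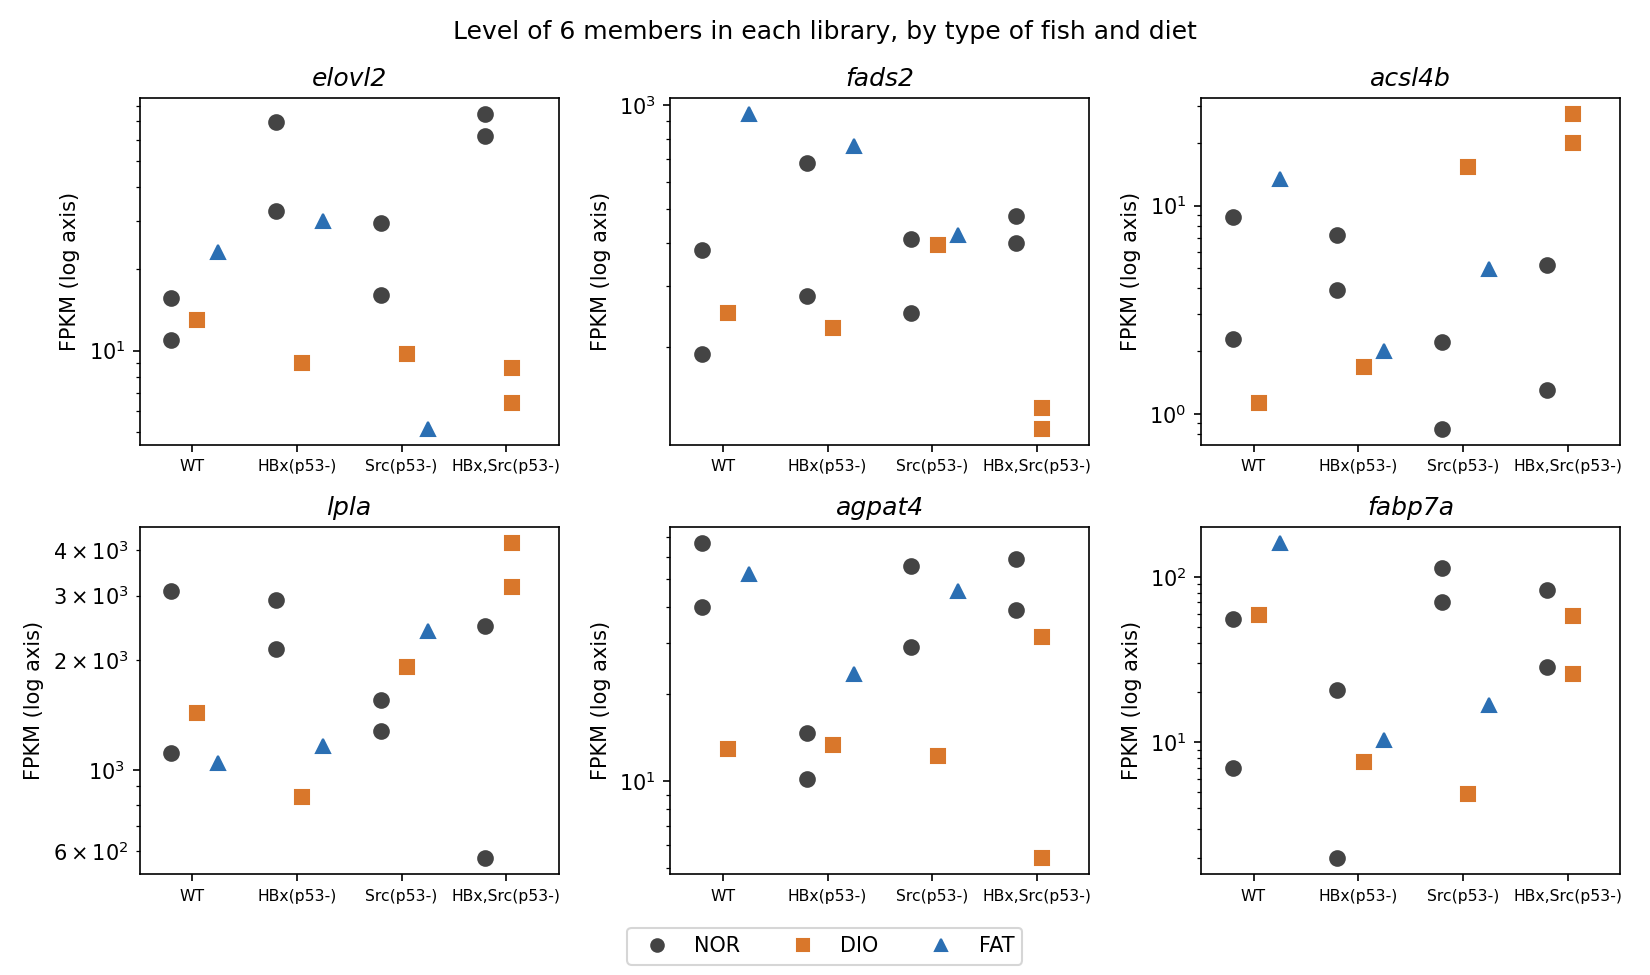
FPKM (log axis) of elovl2, fads2, acsl4b, lpla, agpat4 and fabp7a in each library, by type of fish, with circles for NOR, squares for DIO and triangles for FAT. For elovl2 the HBx,Src(p53-) DIO libraries (8.67 and 6.39) lie far under the NOR libraries (74.7 and 61.6), and for acsl4b (27.7 and 19.9 against 5.21 and 1.2996) the order is the opposite.

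Of the activating enzymes, 3 of 6 members were tested. acsl4b belongs to the long-chain synthetases, whose mammalian ACSL4 prefers arachidonic acid. In WT it stood at 8.85 and 2.28 FPKM (NOR), 1.12 (DIO) and 13.4 (FAT), and in HBx(p53-) at 7.21 and 3.92 (NOR), 1.68 (DIO) and 2.00 (FAT). The Src(p53-) libraries held 2.22 and 0.844 FPKM (NOR), 15.3 (DIO) and 4.95 (FAT), and HBx,Src(p53-) fish had 5.21 and 1.2996 (NOR) and 27.7 and 19.9 (DIO). Both obesity libraries lay above both NOR libraries in the 2 types that carry src, and under them in HBx(p53-). The log2 difference was 2.70 (SE 0.86, limma adjusted p = 0.184) in HBx,Src(p53-), 2.01 (SE 0.86, adjusted p = 0.448) in Src(p53-), -1.16 (SE 0.86, adjusted p = 1) in HBx(p53-) and -0.04 in WT. In Src(p53-) it was 1.29 without the DIO library.

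The mitochondrial acetyl-CoA synthetase acss1 varied widely among WT libraries, with 285 and 26.0 FPKM (NOR), 431 (DIO) and 75.4 (FAT). In HBx(p53-) it stood at 51.2 and 58.2 FPKM (NOR), 36.0 (DIO) and 61.5 (FAT), and HBx,Src(p53-) fish had 56.0 and 37.2 (NOR) and 35.8 and 84.5 (DIO). Levels in Src(p53-) were 10.9 and 14.8 FPKM (NOR), 250.3 (DIO) and 19.5 (FAT). The log2 difference of 2.39 (SE 1.21, adjusted p = 0.476) in Src(p53-) rested on the DIO library, since without it the value was 0.58, and without the FAT library it was 4.20. acsf2, a medium-chain synthetase of mitochondria, was steadier, with a mean of 16.5 FPKM, and its largest diet difference was -0.73 in HBx,Src(p53-). The thioesterases were represented by acot9.2, a mitochondrial enzyme in mammals, with a mean of 4.12 FPKM and its highest value of 16.4 in HBx,Src(p53-) DIO library 2; acot8, of peroxisomes, had a mean of 0.378 FPKM and acot11b one of 0.0674.

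Among the lipases, lpla stood at 3080.2 and 1109 FPKM (NOR), 1431 (DIO) and 1040.1 (FAT) in WT, and at 2924 and 2137 (NOR), 840.3 (DIO) and 1162 (FAT) in HBx(p53-). Src(p53-) fish had 1277 and 1553 FPKM (NOR), 1912 (DIO) and 2399 (FAT), and HBx,Src(p53-) fish had 2472 and 572 (NOR) and 3175 and 4174 (DIO). The obesity libraries lay above the NOR libraries in both types that carry src, under them in HBx(p53-), and overlapped in WT. The log2 difference was 1.61 (SE 0.60, limma adjusted p = 0.234) in HBx,Src(p53-), 0.60 in Src(p53-), -1.34 (SE 0.60, adjusted p = 1) in HBx(p53-) and -0.60 in WT. The HBx,Src(p53-) value leaned on NOR library 2, being 0.56 without it and 2.67 without NOR library 1.

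Endothelial lipase (lipg), which acts on phospholipids of lipoproteins, had 1.08 and 32.8 FPKM (NOR), 2.70 (DIO) and 1.39 (FAT) in WT, and 0.700 and 0 (NOR), 4.26 (DIO) and 0.323 (FAT) in HBx(p53-). In Src(p53-) fish lipg had 7.76 and 6.64 FPKM (NOR) and was listed at 0 on both DIO and FAT, and in HBx,Src(p53-) it had 139 and 1.87 (NOR) and 5.03 and 5.13 (DIO). The value of 139 FPKM came from HBx,Src(p53-) NOR library 1, the library with the highest summed ovary and leukocyte markers and the highest cebpa. WT NOR library 2, second in lipg, had 2.59 FPKM of mpeg1.1, 0.111 of buc and 123 of cebpa. HBx,Src(p53-) DIO library 1, with 5.03 FPKM of lipg, had 10.1, 2.57 and 27.2 of these. The part of these markers in the lipg values was not tested. Hepatic lipase (lipca) was the steadiest lipase, from 586 to 1713 FPKM over all libraries.

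Of the binding proteins, 3 of 8 were tested, and 4 were listed at 0. fabp7a had 6.96 and 55.2 FPKM (NOR), 59.202 (DIO) and 159.8 (FAT) in WT, and 1.99 and 20.6 (NOR), 7.55 (DIO) and 10.4 (FAT) in HBx(p53-). Levels in Src(p53-) were 114 and 70.6 FPKM (NOR), 4.89 (DIO) and 16.8 (FAT), and in HBx,Src(p53-) 28.4 and 83.1 (NOR) and 57.9 and 26.0 (DIO). The diets did not overlap in WT, where obesity was the higher, nor in Src(p53-), where it was the lower. The log2 difference was -3.14 (SE 1.06, limma adjusted p = 0.446) in Src(p53-) and 2.22 (SE 1.06, adjusted p = 1) in WT. The WT value was 0.81 without WT NOR library 1 and 3.63 without WT NOR library 2. fabp3 ranged only from 436 FPKM in WT NOR library 2 to 1223 in HBx,Src(p53-) DIO library 1, with a diet difference of 0.67 (SE 0.37) in HBx,Src(p53-) and -0.53 (SE 0.37) in Src(p53-). fabp4a, an adipocyte-type binding protein, had a mean of 1.16 FPKM.

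Glycerolipid assembly begins with glycerol-3-phosphate acyltransferases (gpat3, gpat4), goes on with the agpat enzymes, which make phosphatidic acid, and ends with diacylglycerol acyltransferase (dgat1b). Of 11 members of this role, 6 were tested. Mean levels were 58.2 FPKM for gpat3, 17.1 for gpat4, 76.2 for agpat2, 31.9 for agpat4, 2.14 for agpat5 and 1.38 for dgat1b. The most abundant agpat member was agpat2. In WT it stood at 36.5 and 188 FPKM (NOR), 75.2 (DIO) and 83.2 (FAT), so that both obesity libraries lay between the NOR libraries. agpat4, the member that the qPCR primers of the study for agpat were designed on, had 40.0 and 66.7 FPKM (NOR), 12.9 (DIO) and 52.0 (FAT) in WT, and 14.7 and 10.2 (NOR), 13.3 (DIO) and 23.5 (FAT) in HBx(p53-). Src(p53-) fish had 29.3 and 55.8 FPKM (NOR), 12.2 (DIO) and 45.4 (FAT), and in HBx,Src(p53-) 39.1 and 58.7 (NOR) and 31.6 and 5.41 (DIO). DIO lay under both NOR libraries in every type except HBx(p53-), where NOR itself was low. agpat5 ranged from 0.295 to 5.60 FPKM, and agpat9l, with a mean of 0.427 FPKM, was not tested.

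The droplet coat protein plin2, which rises with stored lipid in hepatocytes of mammals, had 21.2 and 2.56 FPKM (NOR), 23.9 (DIO) and 7.48 (FAT) in WT, and 1.79 and 16.4 (NOR), 14.2 (DIO) and 15.9 (FAT) in HBx(p53-). The Src(p53-) libraries held 3.10 and 2.17 FPKM (NOR), 12.1 (DIO) and 2.09 (FAT), and in HBx,Src(p53-) 4.01 and 27.2 (NOR) and 2.87 and 9.78 (DIO). The diets overlapped in every type. Its log2 difference was largest in HBx(p53-), at 1.199 with an SE of 1.13, and became -0.12 without HBx(p53-) NOR library 1 and 2.52 without NOR library 2. The other coat member, plin6, had a mean of 0.248 FPKM.

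Peroxins build the peroxisome, where very long chains are shortened. Of 11 peroxins, 10 were tested. The docking protein pex13 had the highest mean (149 FPKM), followed by the membrane protein receptor pex19 (50.5) and its anchor pex3 (25.1). pex19 was lower on the obesity diet in Src(p53-), with 54.9 and 83.7 FPKM (NOR) against 27.3 (DIO) and 36.0 (FAT) (log2 difference -1.09, SE 0.42, adjusted p = 0.447). In HBx,Src(p53-) pex19 had 57.7 and 63.6 FPKM (NOR) and 88.9 and 61.0 (DIO), and the diets overlapped.

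**Figure D4:**
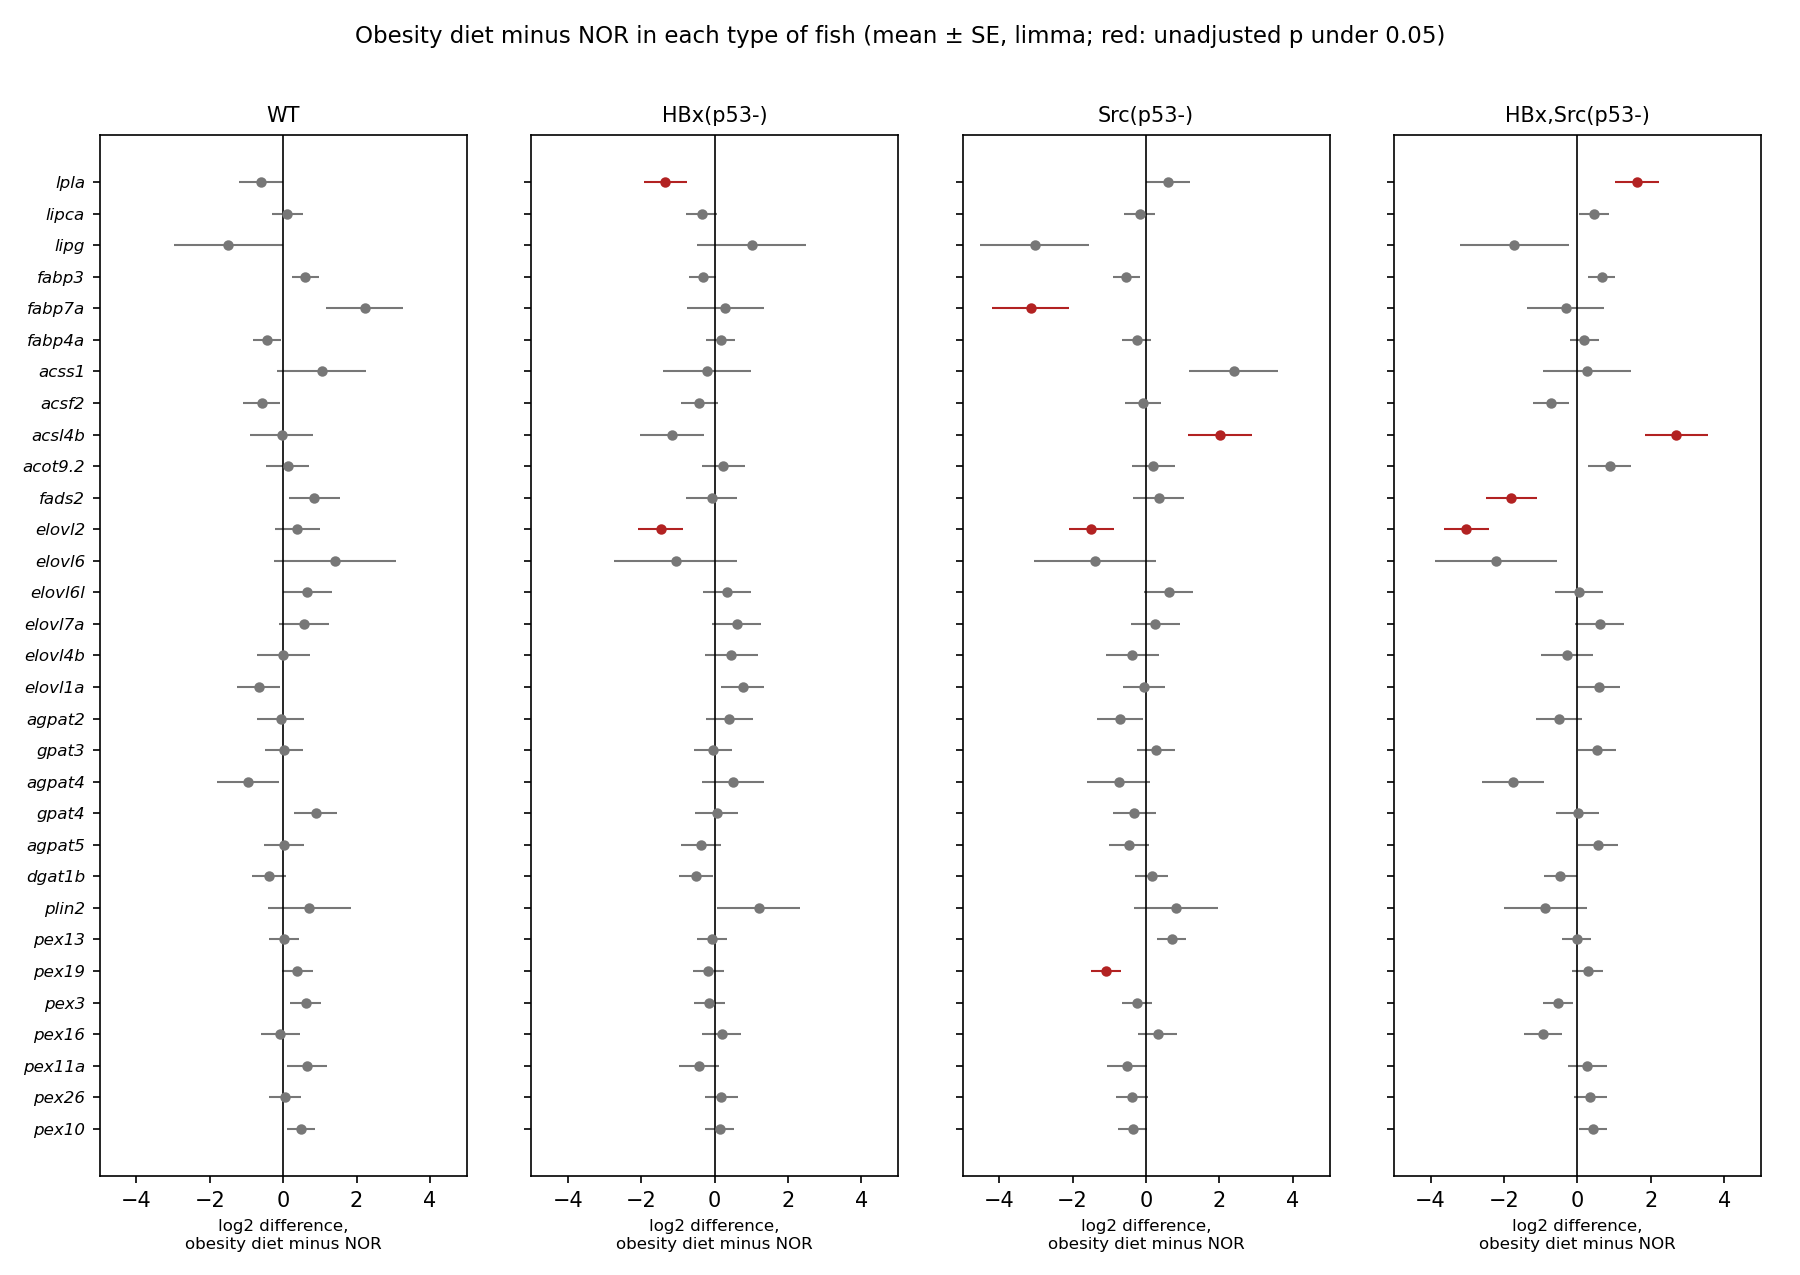
Log2 difference of obesity diet minus NOR for 31 of the 34 members tested, in each type of fish, with points for the limma estimate, bars for 1 SE and red for an unadjusted p under 0.05. No point passed the adjusted p, and the elovl2 points lie at 0.39, -1.46, -1.49 and -3.03 from WT to HBx,Src(p53-).

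The first question was what the obesity diet did within each type of fish. In WT, 0 of 34 members passed the limma adjusted p, as did 0% of all genes, and 0 passed an unadjusted p of 0.05, against 3.42% of all genes. Both obesity libraries lay above both NOR libraries for 8 members (23.5%, against 12.9% of all genes) and under them for 3 (8.82%, against 10.1%). Large log2 differences were 2.22 for fabp7a, 1.42 for elovl6, 1.05 for acss1 and 0.88 for gpat4, and -1.49 for lipg, -0.96 for agpat4 and -0.67 for elovl1a. The lipg value was set by WT NOR library 2 and became 0.52 without it, and -3.50 without WT NOR library 1.

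In HBx(p53-), 0 members passed the limma adjusted p (0.00812% of all genes did) and 2, elovl2 and lpla, passed the unadjusted one, 5.88% against 3.21%. For 5 members the obesity libraries lay above NOR (14.7%, against 12.9%) and for 5 under it (14.7%, against 16%). Large differences upward were 1.199 for plin2, 1.02 for lipg and 0.77 for elovl1a. The largest downward were -1.46 for elovl2, -1.34 for lpla, -1.16 for acsl4b and -1.06 for elovl6.

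In Src(p53-), 0 members passed the limma adjusted p (0.0162% of all genes) and 5 the unadjusted one, among them fabp7a, pex19 and elovl2 downward and acsl4b upward. The 5 are 14.7% of the members, against 10.9% of all genes. The obesity libraries lay above NOR for 4 members (11.8%, against 11%) and under it for 10 (29.4%, against 35.6%), close to the all-gene shares in both directions. Beside acss1 and acsl4b, the largest values upward were 0.82 for plin2 and 0.70 for pex13, and beside fabp7a and elovl2 the largest downward were -3.03 for lipg and -1.39 for elovl6.

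In HBx,Src(p53-), 0 members passed the limma adjusted p (0.17% of all genes) and 5 the unadjusted one, among them elovl2 and fads2 downward and acsl4b and lpla upward. Their share of 14.7% was below the 16% of all genes. The DIO libraries lay above NOR for 7 members (20.6%, against 22%) and under it for 11 (32.4%, against 29.6%). Other large values were 0.89 for acot9.2 and 0.67 for fabp3 upward, and -2.22 for elovl6 and -1.76 for agpat4 downward.

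Across the 4 types, the common effect of the obesity diet was estimated with genotype in the model, from 8 libraries on each side. Under this model 0 members passed the limma adjusted p (0% of all genes), and 2, among them elovl2, passed the unadjusted one, 5.88% against 6.45% of all genes. The common log2 difference was -1.40 for elovl2 (SE 0.41, adjusted p = 0.763), -1.31 for lipg and -0.81 for elovl6. On the upper side it was 0.88 for acsl4b (0.58 without HBx,Src(p53-) NOR library 2), 0.87 for acss1, 0.51 for elovl7a and 0.46 for plin2. Of the 34 members, 16 had a higher and 18 a lower mean on the obesity diet. Among all genes tested, 37.8% had a higher mean on it.

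Whether the diet acted differently in fish that carry src (the Src(p53-) type and HBx,Src(p53-)) and in those that do not was tested as a difference of the diet effects. Mutant p53 and the kind of obesity diet were not balanced, since WT has no p53 mutation and HBx,Src(p53-) had no FAT library. The part of src cannot be told apart from theirs. Here 0 members passed the limma adjusted p (0.0406% of all genes) and 4 the unadjusted one, 11.8% against 15%. The difference was 2.96 for acsl4b (SE 0.86, adjusted p = 0.175), 2.08 for lpla (SE 0.60, adjusted p = 0.175), -2.99 for fabp7a (SE 1.06, adjusted p = 0.235) and -1.72 for elovl2 (SE 0.61, adjusted p = 0.238). The value of lpla passed when WT NOR library 2 was left out (2.45, adjusted p = 0.0477) and when HBx,Src(p53-) NOR library 1 was left out (2.61, adjusted p = 0.0344), and over all alternatives its adjusted p ranged from 0.0344 to 0.470. Other large values were 0.91 for acss1, 0.41 for gpat3, -2.14 for lipg and -1.98 for elovl6.

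Fish that carry src were also compared with those that do not, averaged over diets. Mutant p53 and the kind of obesity diet differ between these sides too, and their effects cannot be told apart from that of src. The median over all genes was itself 0.20 higher in the carriers and became -0.02 after quantile normalization, and the members' median of 0.29 became 0.06. In this comparison 0 members passed the limma adjusted p (0.706% of all genes) and 6 the unadjusted one, all higher in carriers, 17.6% against 15.3%. They included fabp4a (0.48), pex10 (0.46), elovl7a (0.79), pex11a (0.61) and pex19 (0.46). In non-carriers the mean log2(FPKM + 1) of fabp4a, pex10 and elovl7a was 0.82, 0.77 and 0.64, where 1 stands for 1 FPKM. In carriers it was 1.31, 1.23 and 1.44. These genes reached the filter of 1 FPKM only through the carriers, so their direction is partly fixed by the filter. For pex11a and pex19 both sides lay above it. pex10 was raised in HBx,Src(p53-) alone, with 0.308 to 1.27 FPKM in the other 12 libraries. For elovl7a, HBx,Src(p53-) had 4.98 and 0.976 FPKM (NOR) and 5.63 and 3.11 (DIO). Src(p53-) had 1.49 and 0 FPKM (NOR), 0 (DIO) and 2.56 (FAT) of elovl7a, and the non-carriers had 0 to 1.31. The largest values were 0.88 for lipg, 0.87 for fabp7a and 0.79 for elovl7a upward, and -1.50 for elovl6, -1.01 for acss1, -0.76 for plin2 and -0.44 for fads2 downward. The lipg value was 0.38 without WT NOR library 1 and 0.18 without HBx,Src(p53-) NOR library 1, and 1.39 and 1.59 without the other library of either pair. That of elovl6 was -0.84 without HBx(p53-) NOR library 2.

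In HBx,Src(p53-) fish, pex10, part of the ubiquitin ligase of peroxisomal import, had 2.17 and 1.32 FPKM (NOR) and 2.59 and 2.69 (DIO), and in the other 12 libraries 0.308 to 1.27. All 4 HBx,Src(p53-) libraries lay above all others for 2 of 34 members (5.88%), pex10 among them, and for 1.27% of all genes. They lay under all others for 0 members and 0.0731% of all genes. pex10 was singled out after its values were seen. Its mean over all libraries (1.11 FPKM) reached the filter of 1 FPKM only through the HBx,Src(p53-) libraries. Its place in this count is therefore partly fixed by the filter. The leukocyte markers coro1a and mpeg1.1 and the ovary markers buc and bmp15 were also highest in the 4 HBx,Src(p53-) libraries. So were the adipocyte markers cfd (56.0 to 125 FPKM, against at most 39.9) and adrb3a (0.169 to 0.756, against at most 0.0851). The adipocyte marker cebpa overlapped, and adipoqb, lepa and lepb were listed at 0. The part of these markers was not tested.

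The 2 obesity diets were compared over the 3 types that had both, 3 libraries against 3 with genotype in the model. None of the 34 members passed the limma adjusted p (0% of all genes), and 2 passed the unadjusted one, 5.88% against 5.57%. agpat4 had 52.0, 23.5 and 45.4 FPKM (FAT) and 12.9, 13.3 and 12.2 (DIO) in these types, in the order WT, HBx(p53-), Src(p53-), a log2 difference of 1.50 (SE 0.48, adjusted p = 0.839). fads2 had 943, 759 and 421 FPKM (FAT) and 251, 227 and 395 (DIO), a difference of 1.25 (SE 0.48, adjusted p = 0.843). In Src(p53-) the fads2 values of FAT and DIO were only 0.09 apart on the log2 scale. FAT lay above DIO in each of the 3 types for 4 members (11.8%, against 14.4% of all genes), which were agpat4, fads2, fabp7a and pex16, and under DIO in each for 1 member (2.94%, against 13.2%). Other large values were 1.14 for fabp7a and 0.63 for elovl7a upward, and -1.79 for acss1, -1.16 for plin2 and -0.87 for lipg downward. The acss1 value was -0.74 without Src(p53-) DIO and -3.06 without HBx(p53-) DIO.

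Other genes of fatty acid handling were taken from a list of 55. It was fixed with earlier results of these data known, so its shares beside those of all genes are descriptions only. Of the 55 genes, 26 had a named entry and 21 were tested. None passed the limma adjusted p in any of the 8 comparisons. At an unadjusted p of 0.05, 3 were higher and 4 lower on DIO in HBx,Src(p53-) (33.3% of the 21, against 16% of all genes). In Src(p53-), 3 were higher and 1 lower on the obesity diet (19%, against 10.9%). In WT 1 was higher (4.76%, against 3.42%), and in HBx(p53-) there were 0 (against 3.21%). angptl4, a secreted inhibitor of lipoprotein lipase that fatty acids induce, had 36.9 and 90.2 FPKM (NOR) and 864 and 868 (DIO) in HBx,Src(p53-) (log2 difference 3.88, SE 1.25, adjusted p = 0.184). In Src(p53-) angptl4 had 44.2 and 68.1 FPKM (NOR), 1076 (DIO) and 485 (FAT). In WT and HBx(p53-) angptl4 ranged from 51.6 to 893 FPKM with the diets overlapping, and the difference of the diet effects was 4.50 (SE 1.25, adjusted p = 0.165).

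The transcription factor srebf2, which drives sterol synthesis, had 615 and 908 FPKM (NOR) and 205 and 126 (DIO) in HBx,Src(p53-) (log2 difference -2.21, SE 0.66, adjusted p = 0.164). Its FAT libraries (512, 497 and 428 FPKM) lay above its DIO libraries (207, 183 and 179) in the 3 types that had both. In pparg, a nuclear receptor that fatty acids activate, the HBx,Src(p53-) values were 22.04 and 17.4 FPKM (NOR) and 6.55 and 4.15 (DIO). The desaturase scd, which makes monounsaturated fatty acids, was the gene counted as higher in WT (log2 difference 5.23, SE 2.34). It had 1.57 and 728 FPKM in the 2 WT NOR libraries, a wide gap within 1 group, and 852 (DIO) and 3087 (FAT). In Src(p53-) and HBx,Src(p53-) both obesity libraries lay under both NOR libraries, and in HBx(p53-) the diets overlapped. The difference of the diet effects between src carriers and non-carriers was -6.89 (SE 2.34, limma adjusted p = 0.221). This value takes in the WT difference, and with it the wide gap between the WT NOR libraries.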

How the data were processed

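Reads had been aligned by the authors with HISAT2 2.1.0 to the GRCz10 (danRer10) genome. They assembled transcripts with StringTie 1.3.4d and computed FPKM with Ballgown. The deposited FPKM of 16 liver libraries were used as they stand, without realignment. FPKM are not counts, so no count model was run, and the precision of a single value is unknown. Of 35885 entries, 12235 carried a RefSeq transcript name, 11790 of which were matched to a symbol. Names came from a table of assembly GRCz12tu, used for names only, and 28 entries were added to another entry of their gene (none of them a member).

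Values were log2(FPKM + 1), with a pseudocount of 1, which understates changes of low genes. Genes whose mean reached 1 FPKM were fitted with limma 3.58.1 in R 4.3.3 (lmFit, eBayes with trend) as 8 groups, 1 for each type on NOR and on the obesity diet. The common effect came from genotype plus diet, and FAT minus DIO from the 12 libraries of the 3 types with FAT. The steps were tested on simulated data with a change planted between src carriers and non-carriers only. No change was planted in the diet comparisons. Tables and figures were made in Python 3.11.15 with pandas 2.3.3, numpy 2.4.6 and matplotlib 3.10.9.

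Members and lists were chosen with earlier results of these data known. Named are the up to 3 most abundant members of each role, every agpat member, every member past the adjusted p, and the 4 largest differences in each direction of each comparison. Values of 3 members tested are not reported here, though they are in the counts and medians. Members with the largest difference in a direction are given in every library. Alternatives were another pseudocount, no filter, 2 scalings, the highest entry of a gene, no trend, DIO or FAT alone, a replicate block, NOR or obesity libraries alone, and each library left out. The intestine, heart and testis markers summed to 0.139 to 6.83, 0 to 19.7 and 0 to 0.551 FPKM.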

Additional observations from a re-analysis of the deposited data

Results flagged for a closer look

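For 8 of the 31 tested members reported here, both obesity libraries were above both NOR libraries in one type of fish and under them in another, over 6 pairs of types. The same held for 27.9% of all genes tested, so that such cases were about as common among all genes as among these members. The difference between the diet effects was tested with limma for each of these 11 cases, and none passed (lowest adjusted p = 0.216). On the log2 scale, acsl4b differed by 3.86 and lpla by 2.95 between HBx,Src(p53-) and HBx(p53-), and by 3.18 and 1.94 between Src(p53-) and HBx(p53-). In fabp7a, Src(p53-) differed from WT by -5.36, and in fabp3 by -1.14, while fabp3 in HBx,Src(p53-) differed from Src(p53-) by 1.2001. The other cases were elovl1a (1.44, HBx(p53-) minus WT), pex3 (-1.14, HBx,Src(p53-) minus WT), lipca (0.81, HBx,Src(p53-) minus HBx(p53-)) and pex26 (0.74, HBx,Src(p53-) minus Src(p53-)).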

How the results depend on the processing

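The number of members past the adjusted p stayed at 0 in all 8 comparisons under every alternative, except for the difference of the diet effects between src carriers and non-carriers. There it ranged from 0 to 1 as single libraries were left out. It was 1 (lpla) without WT NOR replicate 2 and without HBx,Src(p53-) NOR replicate 1. Over 599 refits of 34 results about single members, 3 changed direction. With single libraries left out, lipg in WT ranged from -3.50 to 0.52 and plin2 in HBx(p53-) from -0.12 to 2.52, and lipg in src carriers minus non-carriers was -0.18 in the obesity libraries alone. For members at a fraction of an FPKM, log2(FPKM + 1) leaves little room to detect a difference, and an FPKM without read counts gives no limit for a value of 0. With the replicate block, on the 10 libraries that carry a number, the members' median in HBx,Src(p53-) was 0.02 with 0 members past the adjusted p, as without the block, and elovl2 had an adjusted p of 0.133 against 0.0842. The correlation of deviations between libraries of equal number ranged from -0.26 to 0.22 among the 5 replicated groups. It was 0.15 between NOR and DIO of HBx,Src(p53-). Such correlations cannot exclude that the numbers pair the libraries.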

Other observations

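On NOR, elovl2 stood at 32.7 and 69.4 FPKM in HBx(p53-) and 74.7 and 61.6 in HBx,Src(p53-), above the 10.9, 15.6, 16.04 and 29.6 FPKM of the WT and Src(p53-) NOR libraries. This split by HBx was seen in the values and was not tested. The heart marker myl7 had 4.12 to 19.7 FPKM in all HBx(p53-) and HBx,Src(p53-) libraries and at most 0.581 in WT and Src(p53-). The other heart markers were listed at 0. The part of myl7 was not tested. elovl4b, an elongase of very long chains, was listed at 0 in all 4 WT libraries and had 1.91, 3.17, 4.33 and 3.28 FPKM in the 4 HBx(p53-) libraries, 4.70 and 2.39 in 2 of the 4 Src(p53-) libraries and 0.482 in 1 of the 4 HBx,Src(p53-) libraries, and 0 in the rest.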
